A study of Homo sapiens with 5 samples.

Results

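Convergent call pairs are places where a forward and a reverse start site face each other: polymerase that starts at the left-hand call and polymerase that starts at the right-hand call would travel towards each other. Each of the 14057 forward calls on chromosomes 1 to 22 and X was joined to the nearest reverse call lying 1 to 500 bp to its right. This gave 2028 pairs, which hold 14.4% of the forward calls (Wilson 95% interval 13.9 to 15.0%) and 1968 of the 14102 reverse calls. A reverse call was shared by 2 forward calls in 60 cases. The pairs were chosen by the measured positions of the calls, so their number and spacing are given as descriptions without a test. The gene ends, the stranded gene starts and the sequence at the calls played no part in the choice of pairs. Whether the calls themselves were made with a gene annotation is not given in the sources.

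The calls came from PRO-seq (precision run-on sequencing), in which engaged polymerases in isolated nuclei extend their RNA with biotin-labelled nucleotides, of HUDEP-2, a line of human red cell precursors immortalised from umbilical cord blood. The series has 2 libraries of wild-type cells and 3 of cells edited with the guide sg1617 in the enhancer of BCL11A, each a single-cell clone with 1 library. Their edits are, in turn, 1 bp inserted, 13 bp deleted and 15 bp deleted. The calls form 1 list per strand with no column per library, from 1 alignment whose name matches no sample. Whether they come from wild-type cells, edited cells or a pool cannot be told apart, so edited and wild-type cells could not be compared, and there are no replicates of any value. Every score in the lists is 0, and the depth behind a call is unknown. All 10 erythroid markers, among them HBB, GATA1 and ALAS2, had a call in the gene body or up to 500 bp beyond it, against 4 of 20 markers of other cell types (CEBPA, ITGA2B, APOA1 and SYN1). The share of all genes with such a call was not counted.

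At most mammalian promoters polymerase starts in both directions from the edges of a region free of nucleosomes, so the usual partner of a start site is a divergent one, pointing away from it. Convergent start sites have been described just downstream of promoters, where an antisense start lies inside the gene and faces the sense start, and where the starts of neighbouring genes overlap head to head. Many start sites have a pyrimidine as the last base before the RNA and a purine as its first base, the core of the initiator element.

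The sequences around both calls are shown for the 6 pairs in which a forward and a reverse call lay closest to the starts of 2 protein-coding genes that face each other, because here both calls can be set against an annotated start. Each run of 30 bases is written 5′ to 3′ on the strand of its call, from RefSeq promoter windows of GRCh38.p14, and the capitals mark the called base and the base after it.
EFCAB5, forward, chr17:29929882-29929911: gcaaagcggagccgcagtgaCAgaagcaag
SSH2, reverse, chr17:29930220-29930249: gcctgcgcactgggagcgctCAttgtgccc
HEXD, forward, chr17:82418326-82418355: aggccccgccccatcagcccCAgtcccgcc
OGFOD3, reverse, chr17:82418578-82418607: gccgatggccgagcgcgtcgCActcgcgtc
SEPTIN2, forward, chr2:241315334-241315363: gccgctcgccgtcccccgccCAgtcgtact
HDLBP, reverse, chr2:241315664-241315693: ctgggggtggggggggaggtCAagcgtagc
ZFYVE19, forward, chr15:40807068-40807097: gcaggcgcagaggaggctagCGttccttgc
DNAJC17, reverse, chr15:40807464-40807493: cgcttagactcttgggagttGTagtacgaa
SMIM10L1, forward, chr12:11171175-11171204: gagcgccagcggcgcccgggGCtacgcgcc
PRH1, reverse, chr12:11171601-11171630: gcgccgcaacggaccctgggAGtcggccat
RAD17, forward, chr5:69369800-69369829: gaaggtccccgggaggccgtACctccgaga
TAF9, reverse, chr5:69369815-69369844: gctcaacgccgagcctctcgGAggtacggc

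In the first 3 of these pairs both calls sat on a C followed by an A. Their calls were 327 bp apart at EFCAB5 and SSH2, a phosphatase gene of the actin cytoskeleton, 241 bp at HEXD, a hexosaminidase gene, and OGFOD3, and 319 bp at SEPTIN2, a septin gene, and HDLBP, which encodes an RNA-binding protein. Each of these 6 calls had an offset of -1 bp, that is, it lay 1 base upstream of the annotated start. The calls of RAD17, a gene of the DNA damage checkpoint, and TAF9, a subunit gene of the general factor TFIID, were 4 bp apart, so their printed runs overlap on opposite strands. AK6 shares the start of TAF9, and PRH1-TAS2R14 shares that of PRH1.

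The dinucleotide CA at the called base and the next base was common in convergent pairs, at annotated starts and away from them. The sequence could be read for 1407 calls of convergent pairs, those that fell in a promoter window of any gene, and 37.5% of them held CA (interval 35.0 to 40.0%). Among the calls within 50 bp of a start of their own strand the share was 37.3% of 880, and among those farther from such a start it was 37.8% of 527 (interval 33.7 to 42.0%). Other calls held CA in 33.4% of 10177 cases (interval 32.5 to 34.3%), and of all neighbouring bases in all promoter windows 6.33% were CA. Over all calls that could be read, the interval of the pairs lay above that of the other calls. Other calls within 50 bp of a start held CA in 33.0% (interval 31.9 to 34.2%) and those farther away in 34.1% (interval 32.5 to 35.7%). Each interval overlapped that of the pair calls so placed, 34.1 to 40.5% and 33.7 to 42.0%. The differences were not tested, since neighbouring calls are not independent.

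With either pyrimidine before either purine counted, that is CA, CG, TA or TG, the shares were 48.0% in convergent pairs, 43.4% in other calls and 21.6% of all neighbouring bases. Forward and reverse calls of the pairs had CA in 38.5% and 36.4%, beside 32.6% and 34.2% of other calls. The intervals of pairs and other calls overlapped for reverse calls and not for forward calls. By spacing, CA was found at 41.1% of 56 calls in pairs 1 to 100 bp apart, 37.3% of 150 at 101 to 200 bp and 35.3% of 382 at 201 to 260 bp. It was found at 41.9% of 160 calls at 271 to 330 bp and 35.1% of 279 at 381 to 440 bp, and the intervals of these classes overlapped. In 259 pairs both calls could be read: both had a pyrimidine before a purine in 64, 1 of them in 126 and neither in 69.

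The same sequences bear on the position of the calls. Over all calls in promoter windows, CA with its C on the called base was found in 33.3% of forward and 34.5% of reverse calls, whereas CA with its A on the called base was found in 1.7% and 1.57%. The commonest offset of a call from the annotated start was -1 bp in genes of either strand. With every call moved 1 bp downstream on its strand, the spacing of a convergent pair becomes 2 bp shorter. The rule then finds 2027 pairs, which are not all the same: pairs 2 bp apart leave, and the one 501 bp apart on chromosome X enters. Positions and spacings are given here as deposited.

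**Figure D1:**
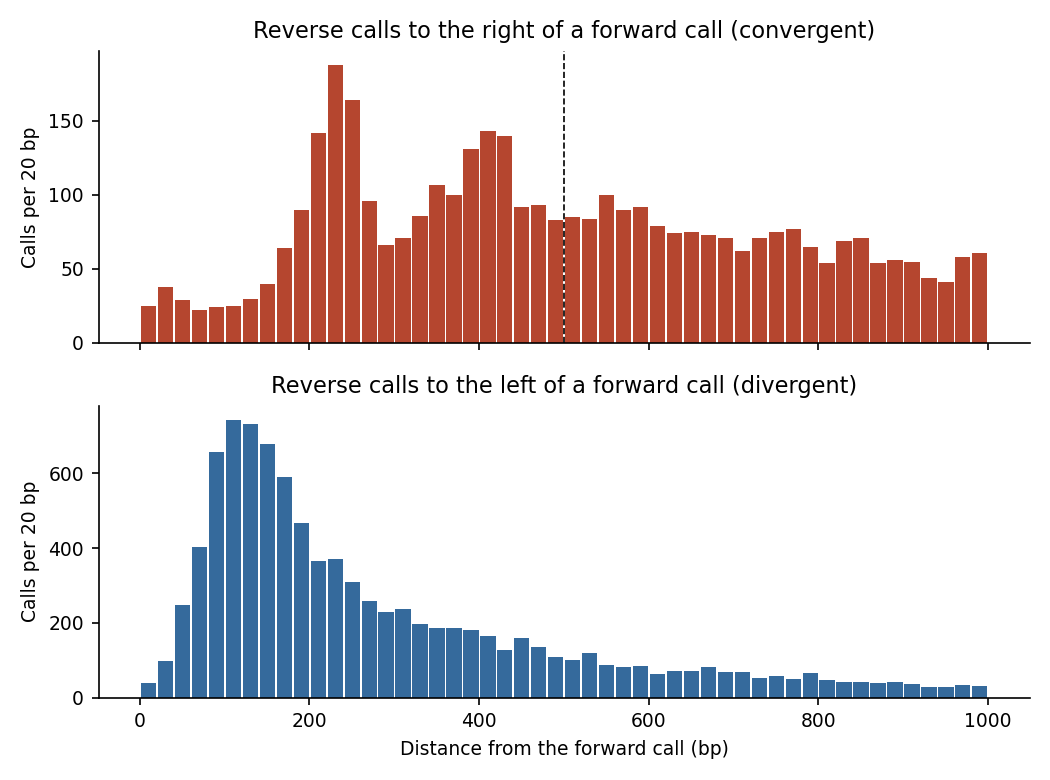
Number of reverse calls per 20 bp of distance (x axis, bp) to the right (upper panel) and to the left (lower panel) of each forward call; the dashed line marks the 500 bp limit of a pair. Reverse calls to the right pile up at 221 to 240 bp (188 calls) and again at 401 to 420 bp (143 calls), whereas those to the left peak at 101 to 120 bp (743 calls) and decline.

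The spacing of convergent pairs had 2 preferred ranges. The median was 292 bp, with quartiles at 218 and 401 bp and a range of 2 to 500 bp. In windows of 60 bp, 92 pairs were 1 to 60 bp apart, 494 were 201 to 260 bp apart, 205 were 271 to 330 bp apart and 395 were 381 to 440 bp apart. These windows were set after the distribution had been seen. When all reverse calls to the right of a forward call were counted, not only the nearest, 188 fell at 221 to 240 bp, 66 at 281 to 300 bp and 143 at 401 to 420 bp.

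Divergent pairs of the same width had no second range. Of the forward calls, 7506 had a reverse call 1 to 500 bp to the left, at a median of 166 bp (quartiles 112 and 256 bp). Of these pairs 1403 were 151 to 200 bp apart, 1045 at 201 to 260 bp, 667 at 271 to 330 bp and 352 at 381 to 440 bp. Within 500 bp of a forward call, 2089 reverse calls lay to the right, facing it, against 7874 to the left, pointing away from it. From 501 to 1000 bp there were 1736 to the right and 1500 to the left, and beyond 2500 bp more lay to the left in each step of 500 bp up to 5000 bp, with 307 to the right and 321 to the left at 2501 to 3000 bp.

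The same windows were counted in pairs that have no other call near them, which is a description of the same distribution. In 234 pairs no further call of either strand lay within 1000 bp. Of these 55 were 201 to 260 bp apart, 24 were 271 to 330 bp apart and 51 were 381 to 440 bp apart. After calls within 500 bp of each other on a strand were merged, 1503 pairs were left, with 369, 149 and 327. Whether the caller favours some distances between calls of opposite strands was not tested.

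**Figure D2:**
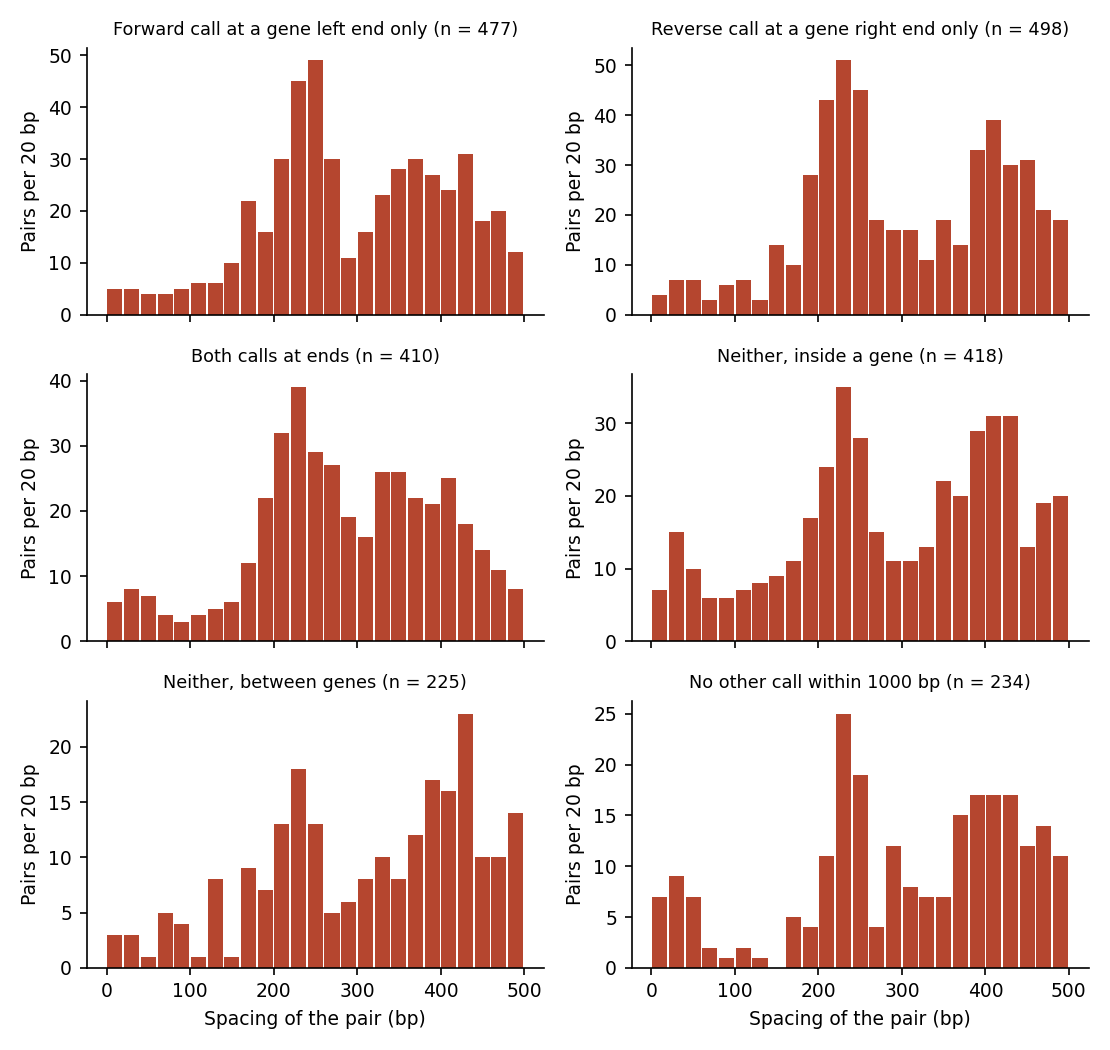
Spacing of convergent pairs (x axis, bp) as pairs per 20 bp, split by which call lay within 500 bp of a gene end, and for pairs with no other call within 1000 bp. In each panel a range near 200 to 260 bp stands out; a second one near 400 bp is clear in 5 panels, while with both calls at ends the windows 271 to 330 and 381 to 440 bp hold 59 and 64 pairs.

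At the limit of the rule, 16 pairs were 496 to 500 bp apart and 15 forward calls had their nearest reverse call at 501 to 505 bp. Pairs exactly 500 bp apart included those at HMGB2, a gene for a chromatin protein, and at USP4, a deubiquitinase gene. The nearest left out was on chromosome X at 49171906 and 49172407, 501 bp apart. The 10 shortest pairs were 2 to 8 bp apart. Among them were the pairs at LOC101928868 with 2 bp, at RAD17 and TAF9 with 4 bp, and at CD274, the gene of an immune checkpoint ligand, with 7 bp. At CD274 the forward call lay 1 base upstream of the start, its offset being -1 bp, and the reverse call 6 bp inside the gene.

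The shares of calls at gene ends were close to those of calls in general. The forward call lay within 500 bp of the left end of a gene in 887 pairs (43.7%, interval 41.6 to 45.9%), beside 44.5% of all forward calls. The reverse call lay within 500 bp of the right end of a gene in 908 pairs (44.8%, interval 42.6 to 46.9%), beside 43.8% of all reverse calls. Only the forward call was so placed in 477 pairs, only the reverse call in 498 and both in 410. Of the 643 pairs with neither call at such an end, 418 had their midpoint inside a gene and 225 between genes. The midpoint lay inside a gene in 80.1% of all pairs (interval 78.3 to 81.8%), and 67.9% of all calls lay inside one (interval 67.3 to 68.4%). These shares compare the midpoint of a pair with the position of a single call.

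Pairs away from gene ends were more often wide or very narrow. The share with neither call at an end was 43.6% of the 78 pairs up to 50 bp apart, 25.6% of the 418 pairs at 201 to 250 bp and 36.6% of the 322 pairs at 401 to 450 bp. Among the 138 pairs 100 bp or less apart, 7 lay at nuclear copies of mitochondrial genes (5.07%), beside 10 of all 2028 pairs (0.493%). Reads of mitochondrial RNA can be misplaced there, and the part this has in those pairs was not tested. A tRNA gene lay within 500 bp of 28 pairs (1.38%, interval 0.957 to 1.99%). The shares of all calls at such copies and at tRNA genes were not counted.

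With the strand of each gene taken into account, most pairs with an annotated start held 1 sense start and 1 facing call. RefSeq promoter windows give stranded starts on the chromosomes used here except chromosome 8, and 1928 pairs could be placed against them. A forward call within 500 bp of a forward start and no matching reverse start was found in 485 pairs, and the mirror image in 512. In 263 pairs both calls were at a start of their own strand, and in 668 neither was. The median spacing was 297, 286, 278 and 294 bp in these classes in turn. The forward call was at a forward start in 38.8% of these pairs, beside 39.2% of all forward calls on the same chromosomes. The reverse call was at a reverse start in 40.2%, beside 38.0% of all reverse calls there. These shares were close to those of calls in general. With both calls at starts, 80 pairs were 201 to 260 bp apart and 38 each were 271 to 330 and 381 to 440 bp apart, so the second range did not stand out there. Pairs 1 to 1000 bp past the far end of a gene, with no start within 500 bp, numbered 40 (2.07%, interval 1.53 to 2.81%), beside 2.63% of all calls.

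**Figure D3:**
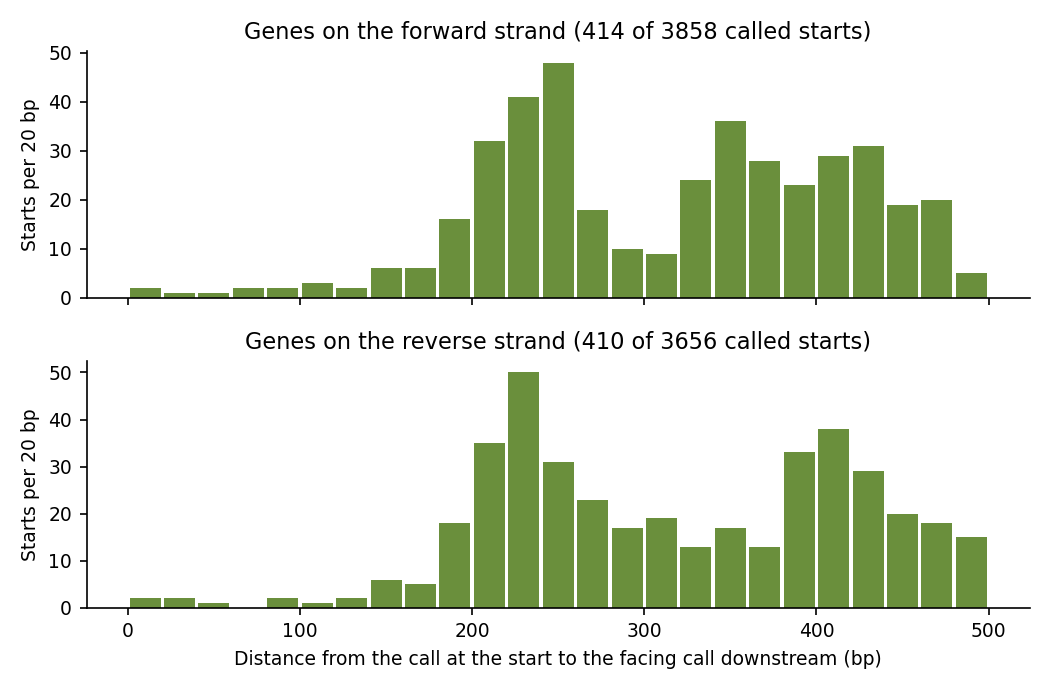
Distance (x axis, bp) from the call at an annotated start to the nearest facing call downstream, for 414 genes of the forward strand and 410 of the reverse strand, as starts per 20 bp. Both strands have few facing calls within 150 bp and 2 ranges of many, at 201 to 260 bp (121 and 116 starts) and at 381 to 440 bp (83 and 100 starts). A pair with both calls at starts can enter both panels.

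Seen from the gene, 7514 genes had a call of their own strand within 50 bp of a start, and 824 of them (11.0%, interval 10.3 to 11.7%) had a facing call 1 to 500 bp downstream. The facing call was at a median of 319 bp (quartiles 235 and 405 bp). Within 150 bp of the start call there were 28 facing calls, 9 at 1 to 60 bp and 19 at 61 to 150 bp, whereas 237 lay at 201 to 260 bp, 89 at 271 to 330 bp and 183 at 381 to 440 bp. Genes of the forward and the reverse strand had 121, 37 and 83 and 116, 52 and 100 in the last 3 windows. The strands use separate sense calls, but a pair with both calls at starts can count in both, as at C1orf122 and YRDC. Genes that share a start call, such as TOR1AIP1 and LOC139427322, each count as well. The share with a facing call was 10.6% of 6663 protein-coding genes (interval 9.89 to 11.4%) and 13.7% of 851 lncRNA genes (interval 11.6 to 16.2%).

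A facing call was found about as often whether or not the promoter also had a divergent call. Of called genes with a divergent call within 1000 bp, 10.9% had a facing call (interval 10.1 to 11.8%), and of those without one 11.2% had (interval 9.95 to 12.5%). These intervals overlap, which does not show that the shares are equal. The promoter windows of genes with a facing call had a median GC content of 64.3% against 65.7% without one, and TATAAA between 40 and 11 bases before the start in 1.58% of both. All promoter windows had a median of 58.7% and held TATAAA there in 2.34%. In genes with several starts, the window read may not be that of the called start. The shares therefore describe genes with and without a facing call, and not always the faced promoter.

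The binding motif of ETS factors, CCGGAAG on either strand, was in 20.3% of the windows of genes with a facing call (interval 17.7 to 23.1%). It was in 24.4% of the windows of called genes without one (interval 23.4 to 25.5%) and in 10.3% of all windows. The CCAAT box, CCAAT on either strand, was in 36.9%, 39.6% and 34.6%. Here too the window read in genes with several starts may not be that of the called start. These motifs were chosen with the calls known, and the differences were not tested.

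Most pairs were part of a larger group of calls, but their calls were in divergent pairs about as often as calls in general. The forward call also had a reverse call 0 to 1000 bp upstream of it, a divergent pair, in 1131 pairs (55.8%, interval 53.6 to 57.9%), beside 57.8% of all forward calls. The reverse call had a divergent partner in 1186 pairs (58.5%, interval 56.3 to 60.6%), beside 57.4% of all reverse calls. Neither call was in a divergent pair in 319 pairs, only the forward call in 523, only the reverse call in 578 and both in 608. At least 1 call was therefore in a divergent pair in 84.3%, but in 46.2% after calls within 500 bp of each other on a strand were merged. Merging keeps the first call in the direction of transcription. It therefore removes a divergent partner that lies within 500 bp of the call of its own strand in the pair. The share of all merged calls in a divergent pair was not counted, so the lower share cannot be read as a trait of the pairs.

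The 608 pairs with a divergent partner on each side join 4 calls in the order reverse, forward, reverse and forward, in some cases with a further call between them, as at MYB and RPL7. The outermost of the 4 calls were a median of 652 bp apart (quartiles 514 and 848 bp). The inner, convergent gap of these groups was a median of 256 bp, and it was 317 bp with only the forward call divergent, 319 bp with only the reverse call divergent and 315 bp with neither. The divergent gap was a median of 159 bp at the forward and 161 bp at the reverse call. Where a pair and 1 divergent partner are taken as 3 calls, the outer calls, which are of the same strand, were 251 bp or more apart. Their median was 488 bp around a forward and 486 bp around a reverse call. Where the divergent gap is short, this lower bound limits how narrow the pair can be. Whether the caller sets a least distance between calls of a strand was not tested.

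**Figure D4:**
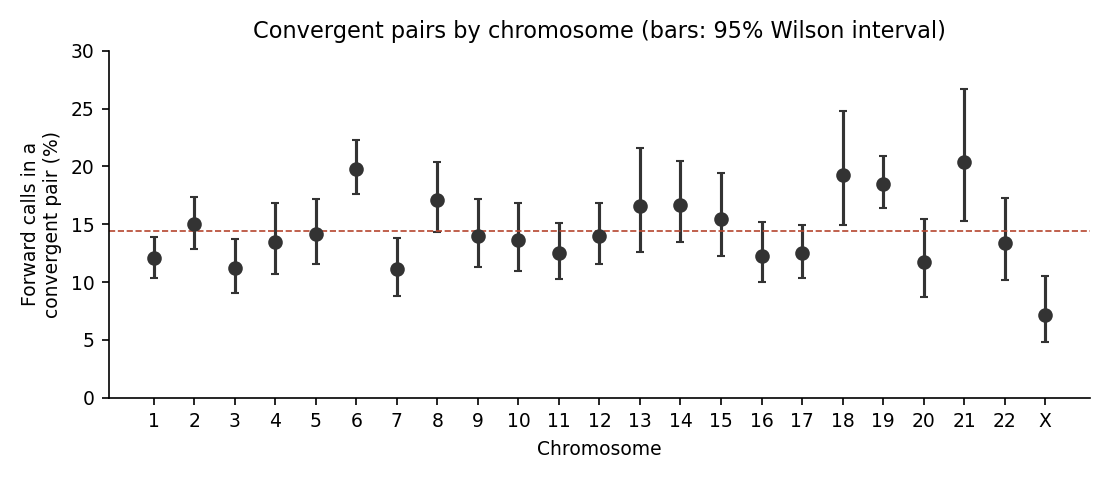
Share of forward calls that are in a convergent pair (y axis, percent) on each chromosome, with Wilson 95% intervals; the dashed line is the share over all chromosomes, 14.4%. The whole interval lies above the line on chromosomes 6, 18, 19 and 21 and below it on chromosomes 1, 3, 7 and X.

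Chromosomes differed in their share of forward calls with a facing call. It was 19.8% on chromosome 6 (interval 17.6 to 22.3%), 18.5% on chromosome 19 (interval 16.4 to 20.9%), 12.1% on chromosome 1 (interval 10.4 to 13.9%) and 7.17% on chromosome X (interval 4.82 to 10.5%). Chromosome 21 had the highest share, 20.4% of 191 forward calls (interval 15.3 to 26.7%). On chromosome 6 the megabases starting at 26 and 27 Mb, where replication-dependent histone genes cluster, held 20 and 12 pairs. The megabase starting at 28 Mb held 17. On chromosome 19 the fullest megabase, starting at 55 Mb, held 13. These are counts of pairs and not shares of the forward calls in each megabase. Without chromosomes 6 and 19 the 3 windows of spacing held 391, 161 and 317 pairs.

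Of 19974 protein-coding genes 9.1% had a pair in the gene body or up to 500 bp beyond it, and of the 7361 with calls on both strands there 24.4% had. Genes with more calls have more chances of a pair, so the gene lists below are read against the second share. The erythroid transcription factors had a pair in 7 of 15 members, all 15 with calls on both strands, and the histones in 7 of 14 (12 with both strands). The further erythroid genes had one in 7 of 18 (14 with both strands), haem and iron genes in 4 of 18 (17), red cell membrane genes in 4 of 25 (18) and fetal globin regulators in 4 of 20 (16). The globin list had 2 of 10 (3), the ribosomal list 2 of 20 (16), the immediate early and heat shock list 1 of 16 (10), the transcription and cell cycle list 5 of 20 (16) and the list of other cell types 0 of 20 (1). The counts are small and no list was tested.

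**Figure D5:**
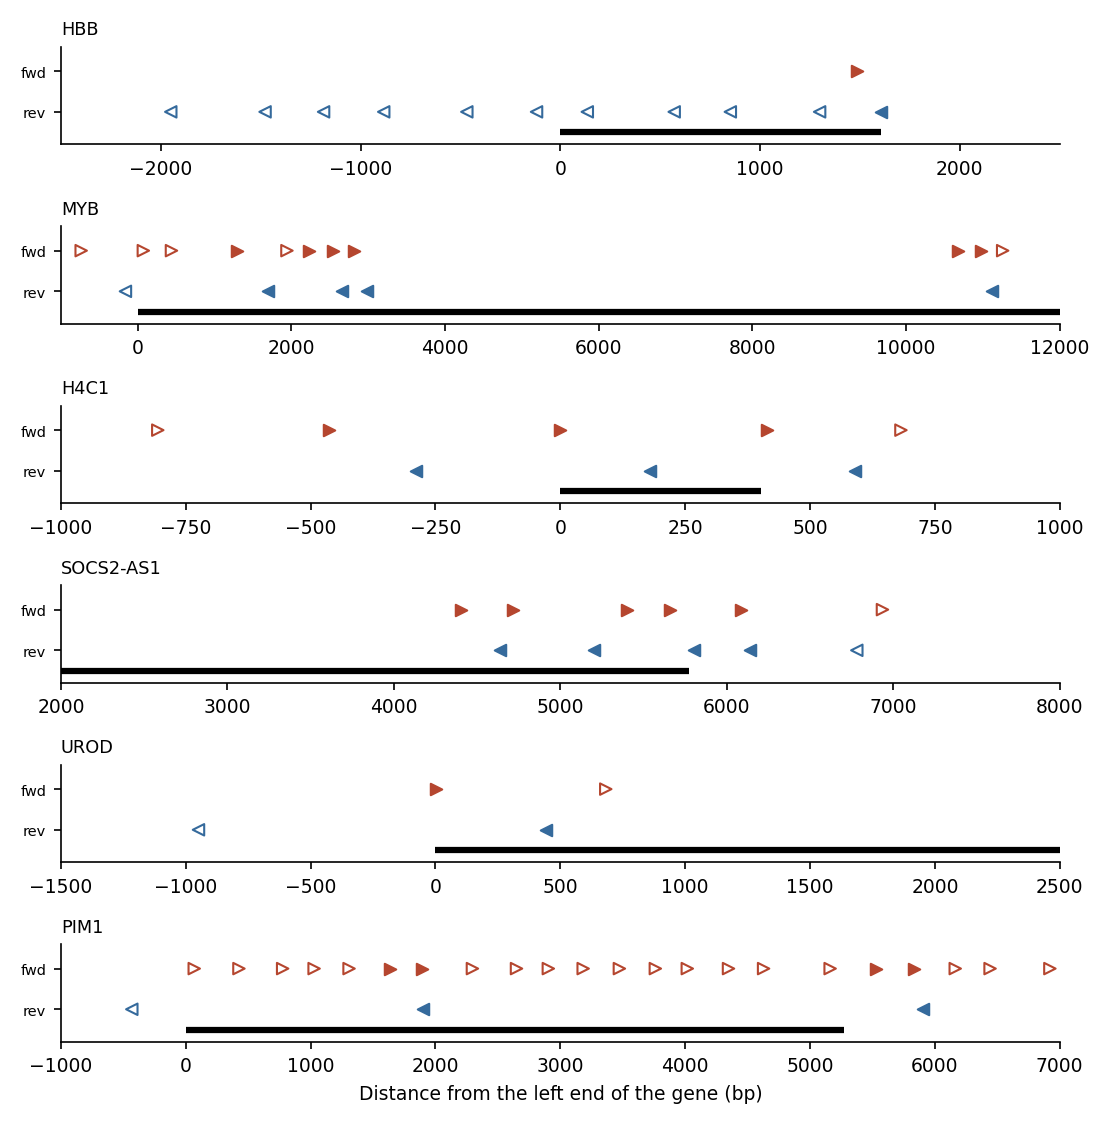
Calls around 6 genes, with distance from the left end of the gene in bp on the x axis; triangles pointing right are forward and pointing left reverse calls, filled when in a convergent pair, and the black bar is the gene. HBB has a single forward call, 122 bp from its start call, MYB has groups of facing calls inside the gene, and H4C1 has 3 pairs of nearly equal spacing.

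HBB, the adult beta-globin gene (gene ID 3043, chromosome 11, 5225464 to 5227071), is transcribed on the reverse strand from its right end. Its start call at 5227071 was faced by a forward call at 5226949, inside the gene and antisense to it, 122 bp away. That forward call was the only one within 2500 bp of the left end of HBB, where 11 reverse calls lay. At HBA1, an alpha-globin gene, the pair lay past the right end of the gene, at 177796 and 178274 on chromosome 16. HBA1 and HBA2 are nearly identical, so calls at either are uncertain.

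Among the erythroid transcription factors MYB, a factor of proliferating progenitors, held 6 pairs, more than any other protein-coding gene. MYB lies on chromosome 6 from 135181308 to 135219172. Its forward calls in pairs lay 1294, 2231, 2547, 2818, 10682 and 10981 bp from the left end, and the facing reverse calls 1698, 2664, 2979 and 11120 bp from it. The 6 pairs therefore use 4 reverse calls, and the call at the start, 73 bp inside the gene, was in none of them. GATA1, the master erythroid regulator, had a pair wholly upstream of its start, at 48786052 and 48786404 on chromosome X, 352 bp apart. At KLF1, another erythroid activator, the pair lay past the far end of the gene, 229 bp apart. RUNX1, FOXO3, KLF3 and LMO2 had 1 pair each, with spacings of 399, 363, 268 and 60 bp.

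Of the fetal globin regulators DNMT1, the maintenance DNA methyltransferase, had its start call at an offset of 3 bp and a facing call 250 bp downstream. ZBTB7A, a repressor of gamma-globin, had a pair upstream of its start, 234 bp apart, and RBBP4, a NuRD subunit gene, had one 303 bp apart next to ZBTB8OS. NFIX had 3 pairs at its far end with spacings of 112, 98 and 334 bp, the last of them next to LYL1, the gene of another haematopoietic factor. BCL11A had none.

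Of the genes of haem synthesis, UROD, uroporphyrinogen decarboxylase, was called 2 bp inside its start and faced by a reverse call 439 bp away. PPOX had a pair of 225 bp inside the gene, next to B4GALT3, and ABCB10, a mitochondrial transporter gene, had 2 inside it that share a reverse call. In the membrane list STOM, stomatin, was called 5 bp inside a start and faced 214 bp away. BSG, basigin, was called 31 bp inside a start and faced 144 bp away, next to BSG-AS1. ANK1, ankyrin, had a pair of 463 bp.

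In the further erythroid genes, ERMAP, a blood group gene, was called at an offset of -1 bp and faced 214 bp downstream. SLC43A1, an amino acid transporter gene, was faced at 224 bp and BCL2L1, the gene of an anti-apoptotic protein, at 251 bp, where neither call of the pair was in a divergent pair. AHSP, the chaperone of alpha-globin, had a pair past its right end, 366 bp apart, and TSPO2 had one upstream of its start, 410 bp apart. PIM1, a kinase gene with a long run of forward calls, had 3 pairs with spacings of 268, 8 and 381 bp, the first 2 of which share a reverse call. BNIP3L, which acts in the clearance of mitochondria, had a pair of 500 bp.

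Among the histone genes, H4C1 held 3 pairs of nearly equal spacing. At H4C1 (chromosome 6, 26021649 to 26022050) forward calls lay at -464, -1 and 413 bp from the left end and the facing reverse calls at -288, 179 and 590 bp. The spacings of these 3 pairs were 176, 180 and 177 bp. The first of them also lies within 500 bp of H3C1. H2AC8 was called at an offset of -1 bp and faced at 231 bp, H4C8 was called at its start and faced at 211 bp, and H1-2, H2BC4 and H1-4 had pairs of 244 bp, 343 bp and 389 and 99 bp. Histone genes of the same class are similar in coding sequence, so their calls may be uncertain. Whether reads were misplaced among them was not tested.

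In genes used by all dividing cells, POLR2A, the largest subunit of RNA polymerase II, was called at its start and faced 327 bp downstream, and a second pair of 431 bp lay upstream. PCNA, the replication clamp, was faced 446 bp from its start call next to PCNA-AS1, and SUPT6H, CDK9 and MCM3 had pairs of 242, 41 and 315 bp. JUNB was the only immediate early gene with a pair, of 383 bp next to HOOK2. RPL7 had 2 pairs and RPS19 1 of 283 bp.

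Other genes with many pairs were SOCS2, an inhibitor of cytokine signalling, and its overlapping antisense gene SOCS2-AS1, which share 5 pairs with spacings of 235, 487, 404, 145 and 57 bp. LOC102723945 held 6, LOC124905135 5 and CTDSP1, a phosphatase gene, 4. At LOC102724250, 3 of the 4 pairs were 34, 39 and 34 bp apart, at the nuclear copies of mitochondrial genes on chromosome 1. In all 2417 genes had a pair inside or within 500 bp and 364 had 2 or more, and 317 pairs began within 2000 bp of the start of the previous one.

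Both calls lay within 50 bp of a stranded start in 78 pairs. In 34 of them both starts belonged to protein-coding genes and in 43 one was coding and the other an lncRNA. Beyond the pairs printed above, the coding ones included RMI1 and HNRNPK, an RNA-binding protein gene, at 244 bp, and PSMC5, a proteasome subunit gene, with FTSJ3 at 221 bp. Wider ones were EEFSEC with RUVBL1, a chromatin remodeller gene, at 420 bp, DTX3L with PARP9 at 424 bp and ZNF345 with ZNF790 at 420 bp. Genes with several starts count here through any of them.

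Far from genes, 80 pairs (3.94%) lay between genes and over 1000 bp from every gene end. The share of all calls so placed was not counted. The farthest was on chromosome 7 at 4641858 and 4642117, 259 bp apart and 40178 bp from the nearest gene end, with both calls also in divergent pairs. The next was on chromosome 15 at 31264170 and 31264393, 223 bp apart and 33308 bp from a gene end, with neither call in a divergent pair. On chromosome 10 a pair at 72297475 and 72297805 was 21439 bp from a gene end.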

How the data were processed

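PRO-seq calls were analysed from 2 deposited lists, 1 per strand. Per the file headers, the authors called them with TSScall on 1 sorted, de-duplicated alignment, whose name matches no single library. Per the submitters' processing notes, the build was hg38 and BWA 0.7.16a, Picard, SAMtools 1.17 and deepTools 3.5.4 were used. For TSScall, version and settings are not given in the sources. The deposited score is 0 in all 28283 calls. The end coordinate of each 1-base interval, another value as deposited by the authors, was taken as its position. Gene ends came from the RefSeq gene table of GRCh38.p14 (59098 genes) and stranded starts from 34961 promoter windows of 27195 genes. Facing coding starts were matched to these starts in place of gene ends. Genes were named by lists, number of pairs, spacing, distance from genes and closeness of both calls to coding starts; some genes so chosen are not reported here. The members, lists and windows were chosen with earlier results of these data known. Shares have Wilson 95% intervals (scipy 1.17.1), which cover counting over calls only; no test was run. Pairing was tested on simulated calls, where 536 of 536 planted pairs were recovered. Tables were handled with pandas 2.3.3 and numpy 2.4.6 under Python 3.11.15; figures used matplotlib 3.10.9.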

Additional observations from a re-analysis of the deposited data

Results flagged for a closer look

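The mitochondrial genome lies outside the chromosomes used above. It held 44 convergent pairs from 49 forward and 45 reverse calls, at a median spacing of 76 bp and from 12 to 495 bp. They are listed because no comparison above uses mitochondrial calls. The mitochondrial genome is transcribed from both strands throughout.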

How the results depend on the processing

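Of 48 values under alternatives, 23 stayed within the counting interval of the reported value, or within 1.5 times for the number of pairs, and 25 moved. With a spacing limit of 250 bp there were 805 pairs with a median of 202 bp and 47.1% had the reverse call at a right end. With 1000 bp there were 3323 pairs with a median of 422 bp, and 41.1% had the forward call at a left end, 40.3% the reverse call at a right end, 34.4% neither and 81.4% a divergent member. After merging calls within 500 bp on a strand the median was 314 bp, 29.5% had neither call at an end and 46.2% a divergent member. Merging itself removes some divergent partners. A gene end window of 100 bp gave 25.5% at left ends, 26.1% at right ends and 55.0% at neither, and 1000 bp gave 60.1%, 59.9% and 17.9%. Protein-coding genes only gave 31.9%, 33.3% and 42.5%, and stranded starts in place of ends 38.8%, 40.2% and 34.6%. With a divergent limit of 500 bp 78.7% had a divergent member. Mutual nearest pairs, calls moved 1 bp downstream and leaving out chromosomes 6 and 19 moved none of the values run under them. Stranded starts, the 1 bp shift and leaving out those chromosomes were chosen after seeing the data. No paired analysis was possible because the lists have no column per library. The depth of the libraries is unknown, so a missing call does not show a missing start.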
